A study of Mus musculus with 24 samples.

Results

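The potassium channel genes of mouse pancreatic islets were taken as the genes whose mouse symbol begins with Kcn, plus Abcc8 and Abcc9, which encode the sulfonylurea receptors of the KATP channel. The expression table held 99 such genes among 28059. Of these, 46 reached 1 RPKM (reads scaled to gene length and to the size of the library) in at least 4 libraries and were tested, among 14342 genes tested in all, and 53 stayed below that level. RNA sequencing was done on handpicked islets of mice of mixed background aged 3 to 4 months, in 6 groups that the sample numbers divide into 2 sets. In each set a control, a Cop1 deletion and a deletion of Cop1 together with Etv genes were compared, and the question was what loss of COP1, a ubiquitin ligase that marks ETV transcription factors for degradation, changes in islets and which changes need those factors.

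Controls were Cop1 fl/fl and carried no Cre (3 libraries in set 1 and 4 in set 2). The Cop1 deletion groups carried the same floxed alleles with Pdx1.CreERT2 (3 and 4 libraries). In set 1 the third group had Pdx1.CreERT2, Cop1fl/fl and Etv1fl/fl together with Etv5fl/fl and Etv4ko/ko (4 libraries, called those labelled Etv1/4/5). In set 2 it was Cop1fl/fl, Etv4ko/+, Etv5fl/fl with Pdx1.CreERT2 (4 libraries, called those labelled Etv4/5), so that no change of Etv1 is named and an Etv4 allele remained. All groups thus shared the floxed Cop1 alleles. CreERT2 joins Cre to part of the estrogen receptor, so that tamoxifen activates it, and the Pdx1 promoter is active in β cells and in some other islet cells. The control without Cre does not separate deletion from effects of Cre, and the tamoxifen dose and timing were not among the sources used here.

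The labels were checked on some of the targeted genes. Cop1 lay at 1.22 to 1.55 RPKM in the controls of set 1 and at 0.984 to 1.13 in its Cop1 deletion libraries, and at 1.43 to 1.87 against 0.763 to 0.934 in set 2. The RPKM value covers the whole gene, and islets also hold cells without Cre, so a level above 0 is possible after deletion. Etv4 went against its label: it was listed at 0.0418 to 0.118 RPKM in the controls of set 1 and at 0.927 to 1.53 in the libraries labelled Etv1/4/5, in which both Etv4 alleles are named as knockout. Etv1 was at 4.89 to 5.61 RPKM in the libraries labelled Etv1/4/5 and at 4.23 to 5.01 in the Cop1 deletion libraries of set 1. Values of Etv5, and of the Etv genes in set 2, are not reported here. Both Etv groups are therefore named by their labels only. Esr1, part of which CreERT2 carries, was at 44 to 111 RPKM in the 15 libraries labelled with Cre and at 0.05 to 0.2 in 6 of the 7 controls, but at 99.1 in the library labelled set 1 control replicate 2. Without that library 48 of 51 calls on potassium channel genes were kept, among them 7 of the 8 made after Cop1 deletion in set 1. By rank correlation over the genes tested, set 2 control replicate 4 stood apart from its group (median 0.955, against 0.99 to 0.992 for the other 3), and the 4 Cop1 deletion libraries of set 2 were less alike (0.953 to 0.974) than those of set 1 (0.989 to 0.992). The depth of a library, relative to the deepest, ranged from 0.331 to 0.526 in set 1 and from 0.757 to 1 in set 2, so that low values of set 1 rest on fewer reads. Of the set 2 Cop1 deletion libraries, replicates 2 and 3 lacked Xist, which was at 51.6 to 62.9 RPKM in all 4 controls. Without both, 41 of the 51 calls were kept, a count that includes comparisons that do not use these libraries. After Cop1 deletion in set 2, 5 members were called without both, against 11 with all libraries. The calls lost there were those of Kcng3, Kcnh2, Kcnk1, Kcnk12, Kcnma1 and Kcnn2. Another fit kept only the set 2 libraries that have Xist, and it left out part of the libraries labelled Etv4/5 too. The labels do not tie libraries to mice or cultures, so p-values measure only the spread between these samples.

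Potassium channels set the membrane potential of islet cells. In β cells the KATP channel, built from pore subunits (Kcnj11) and sulfonylurea receptors (Abcc8), closes when glucose metabolism raises ATP, and the depolarization that follows opens calcium channels and releases insulin. Voltage-gated and calcium-activated potassium channels then repolarize the cell, and 2-pore-domain channels carry a background current.

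The sequences before the start sites of 4 members are shown, because these members differed between genotypes and ETV factors bind DNA with a GGAA core. Of the 19 members called in 1 or more comparisons, 12 had an entry in the RefSeq promoter table (GRCm38.p6, which is not the mm9 build of the reads). The 250 bases upstream of each start were searched on both strands for AGGAAG and CCGGAAG, which share the letters GGAAG and cannot both match at 1 place. Matches are in capitals. AGGAAG was present in 29.5% of all 32851 promoter windows and CCGGAAG in 6.91%. Over the 42 windows of tested members, AGGAAG was in 17 (40.5%) and CCGGAAG in 1 (2.38%). Among the called members, the windows of Kcnip2, Kcnk1, Kcnk12 and Kcnk16 held a match and those of the other 8 held neither string. At least 1 of the strings was in 30.8% of the 13 windows of called members and in 34.5% of all windows. Kcnip2 (chr19:45816064-45816313, minus strand) and Kcnh1 (chr1:192190527-192190776, plus strand) were higher after Cop1 deletion and lower again in the libraries labelled Etv1/4/5. The window of Kcnip2 held CCGGAAG on the opposite strand, beginning 148 bases before the start, and that of Kcnh1 held neither string. Kcnk16 (chr14:20269270-20269519, minus strand) and Kcnj12 (chr11:61065554-61065803, plus strand) were lower after Cop1 deletion. AGGAAG began 131 bases before the start of Kcnk16, and the window of Kcnj12 held neither string. A match is a description of the letters only.
Kcnip2: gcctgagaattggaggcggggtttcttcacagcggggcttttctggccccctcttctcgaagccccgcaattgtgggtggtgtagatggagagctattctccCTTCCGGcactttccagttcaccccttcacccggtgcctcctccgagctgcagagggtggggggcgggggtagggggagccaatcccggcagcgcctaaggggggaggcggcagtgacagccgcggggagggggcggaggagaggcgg
Kcnh1: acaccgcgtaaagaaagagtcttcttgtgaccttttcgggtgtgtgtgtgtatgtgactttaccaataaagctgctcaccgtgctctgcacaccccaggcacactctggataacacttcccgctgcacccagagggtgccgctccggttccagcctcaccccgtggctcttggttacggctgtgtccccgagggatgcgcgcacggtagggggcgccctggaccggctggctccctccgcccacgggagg
Kcnk16: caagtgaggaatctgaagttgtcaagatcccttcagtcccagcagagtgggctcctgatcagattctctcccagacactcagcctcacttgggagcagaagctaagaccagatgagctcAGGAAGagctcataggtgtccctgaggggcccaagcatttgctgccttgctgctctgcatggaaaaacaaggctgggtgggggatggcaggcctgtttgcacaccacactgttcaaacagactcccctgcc
Kcnj12: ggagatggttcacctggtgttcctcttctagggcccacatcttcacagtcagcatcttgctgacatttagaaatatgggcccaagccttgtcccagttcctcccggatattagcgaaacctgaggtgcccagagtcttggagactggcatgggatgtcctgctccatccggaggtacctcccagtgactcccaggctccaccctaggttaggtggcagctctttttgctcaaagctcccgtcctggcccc

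Levels are compared between genes as RPKM, which is scaled to gene length. Abcc8 was the highest of the 99 members in 21 of 22 libraries and Kcnk16, the 2-pore-domain channel of β cells, in the other. With Kcnj11, the pore subunit of the β cell KATP channel, these genes made up 62 to 65.6% of the summed RPKM of all members in set 1 and 51.9 to 59% in set 2. Their mean RPKM over the 22 libraries was 235 (Abcc8), 118 (Kcnk16) and 55 (Kcnj11). Only 10 members had a mean of 10 RPKM or more. They also included Kcnmb2, a regulatory subunit of the calcium-activated BK channel (37.6 RPKM), the channel-interacting protein Kcnip1 (32.7), the voltage-gated channels Kcnh2 (28.6), Kcnh6 (18.2) and Kcnh1 (13.4), and the 2-pore-domain channel Kcnk1 (22.8).

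**Figure D1:**
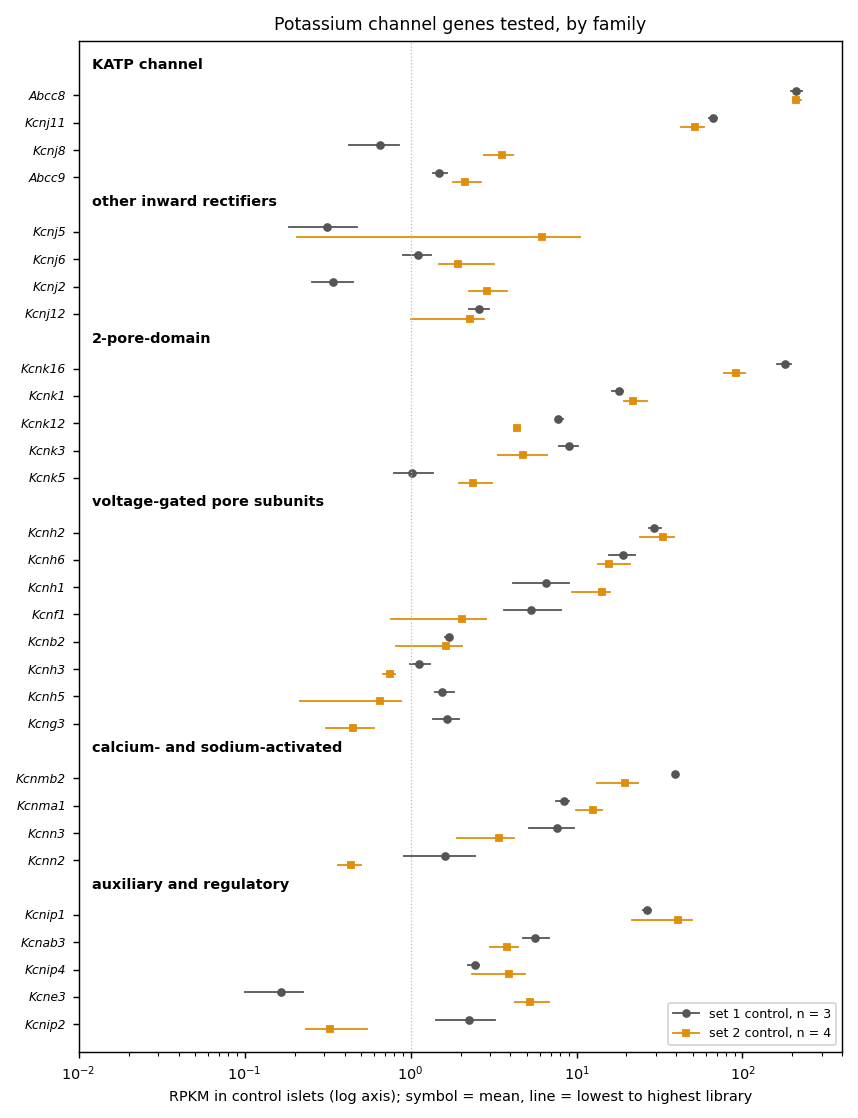
RPKM of 30 of the 46 tested potassium channel genes in control islets on a log axis, grouped by family and ordered by the mean over all libraries; symbols are means and lines run from the lowest to the highest library of set 1 (n = 3) and set 2 (n = 4). Abcc8 stands at the top in both sets, and Kcne3, Kcnj2 and Kcnj8 lie far lower in set 1 than in set 2.

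Levels also differed between the controls of the 2 sets, which was not tested. In 2 examples chosen after their values were seen, set 2 was higher. Kcne3, a regulatory subunit, was at 0.101 to 0.224 RPKM in the controls of set 1 and at 4.29 to 6.79 in those of set 2. Kcnj2, a strong inward rectifier, was at 0.254 to 0.448 and 2.25 to 3.82 RPKM. In the other direction, Kcnk16 was at 161 to 197 RPKM in the controls of set 1 and at 77.6 to 103 in those of set 2. All comparisons were therefore made within a set or as a mean or difference of the within-set contrasts.

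After Cop1 deletion, 15 of the 46 tested members were called in the mean of both sets (adjusted p under 0.05 by limma, adjusted over all 14342 genes): 7 rose and 8 fell, where 9.57% of all genes rose and 10.5% fell. The members called were 32.6% of those tested, against 20.1% of all genes. Fold changes are differences in log2(RPKM + 0.5), a scale that understates the change of low genes. Within set 1, 8 members were called (3 rose and 5 fell), where 8.33% of all genes were called, 4.04% higher and 4.29% lower. Within set 2, 11 were called (5 rose and 6 fell), where the share of all genes was 18.8%, 9.09% higher and 9.75% lower. The median log2 fold change of the members in the mean of both sets was -0.10, and that of all genes was -0.02. The 2 sets did not call any member in opposite directions. Kcnmb2 rose in both sets, and Kcng3 and Kcnj12 fell in both. In set 1 the values of control and Cop1 deletion libraries did not overlap for 20 of the 46 members, 43.5% against 29.9% of all genes, and in set 2 for 8 members, 17.4% against 16.1%. Without set 2 control replicate 4, 19 members were called in set 2, where the share of all genes was 23.6%. Without Cop1 deletion replicate 1 of that set 18 were, against 23.8% of all genes. Other fits called fewer members in set 2. Leaving out its control replicate 1 gave 7 (15.2%, against 13.9% of all genes), and leaving out its Cop1 deletion replicates 2 and 3 together gave 5 (10.9%, against 11.1%). With set 2 libraries that have Xist only, 5 were called (10.9%, against 9.27%). With only the groups of the comparison in the fit, 3 were (6.52%, against 3.23%). The set 2 calls lost in that fit were those of Kcng3, Kcnh2, Kcnh3, Kcnj12, Kcnk1, Kcnk12, Kcnma1 and Kcnmb2. Without all the libraries in doubt (the library labelled set 1 control replicate 2, set 2 control replicate 4 and set 2 Cop1 deletion replicates 2 and 3), 18, 16 and 13 members were called in the mean, in set 1 and in set 2, and the shares of all genes called were 28.4, 24.7 and 20.03%.

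**Figure D2:**
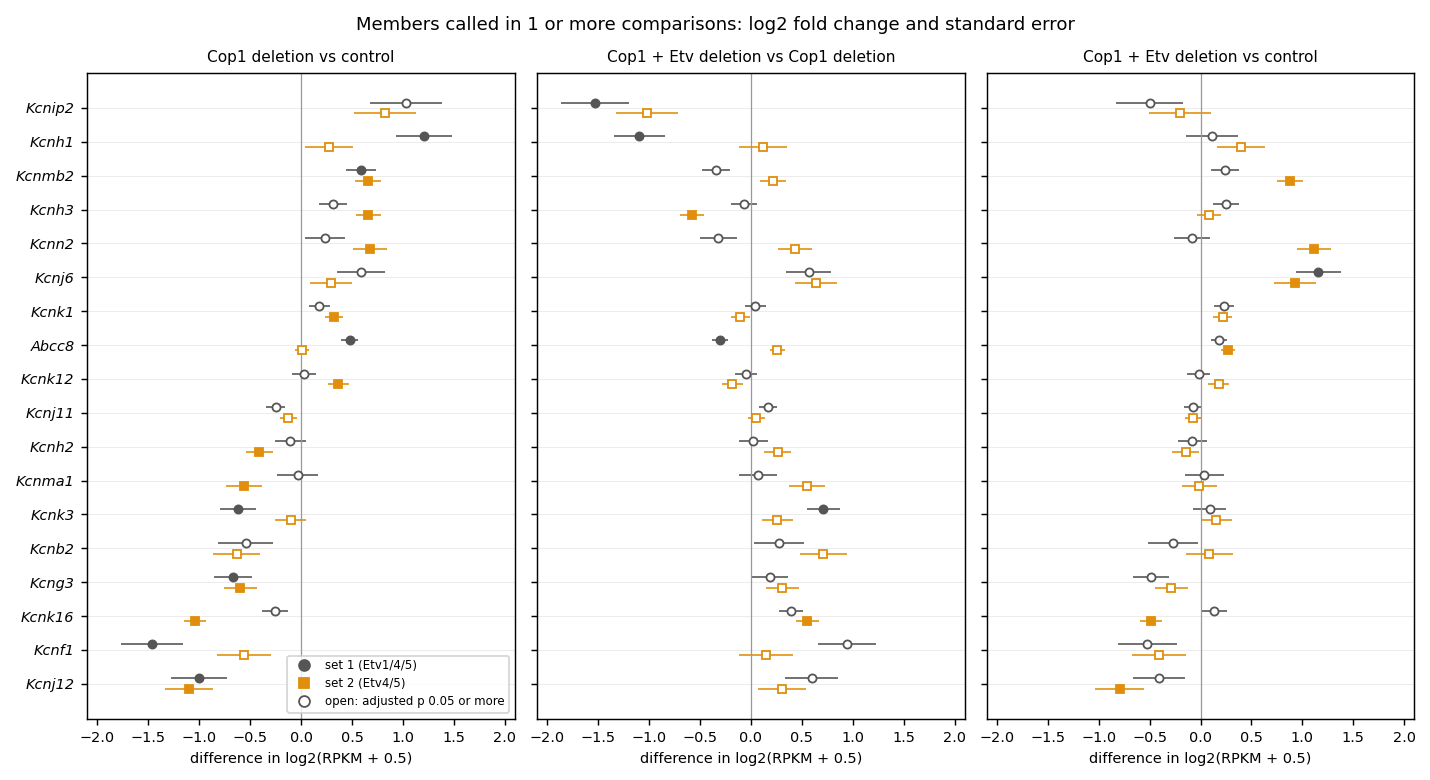
Log2 fold change (difference in log2(RPKM + 0.5)) and standard error for 18 of the 19 members called in 1 or more comparisons, for Cop1 deletion against control, for Cop1 and Etv deletion against Cop1 deletion, and for Cop1 and Etv deletion against control; circles are set 1, squares set 2, and filled symbols have an adjusted p under 0.05. Kcnj12 lies near -1 in both sets in the first panel, while Kcnk16 is at -0.26 in set 1 and at -1.04 in set 2.

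Of the 4 KATP channel genes, Abcc8 rose (log2 fold change 0.24, SE 0.06, adjusted p = 0.0037) and Kcnj11 fell after Cop1 deletion in the mean of both sets. Abcc8, the sulfonylurea receptor of β cells, was at 196, 210 and 227 RPKM in the controls of set 1 and at 286, 292 and 306 after Cop1 deletion. The groups did not overlap, and Abcc8 rose (log2 fold change 0.48, SE 0.08, adjusted p = 0.00093 by limma). In set 2 the controls were at 208, 226, 205 and 201 RPKM and the Cop1 deletion libraries at 216, 212, 180 and 241. These groups overlapped, and the log2 fold change was 0.01 (SE 0.07, adjusted p = 0.95). The difference between the sets was itself called (0.47, SE 0.11, adjusted p = 0.026), as it was for 2.83% of all genes, with a value above 0 for 0.997% and below 0 for 1.83%. It was lost without set 1 control replicate 1, set 1 Cop1 deletion replicate 3 or 4, or set 2 control replicate 2 (adjusted p 0.054 to 0.086). That call was also lost with only the groups of the comparison in the fit and with set 2 libraries that have Xist only (adjusted p up to 0.17).

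Kcnj11, its neighbour on chromosome 7, was at 62.9, 70.2 and 66 RPKM in the controls of set 1 and at 55.4, 55.3 and 56.6 after Cop1 deletion. In set 2 it was at 54.4, 58.6, 51.6 and 42.4 RPKM in the controls and at 51, 46.5, 41 and 50.6 after Cop1 deletion. The groups were apart in set 1 and overlapped in set 2. In the mean of both sets Kcnj11 fell (log2 fold change -0.19, SE 0.06, adjusted p = 0.04), while neither set alone passed the test. The call was lost when any 1 of 10 libraries was left out (adjusted p 0.05 to 0.096), among them the library labelled set 1 control replicate 2 (-0.17, adjusted p = 0.096). Without set 2 control replicate 4, Kcnj11 passed in set 1 (-0.25, adjusted p = 0.034) and in set 2 (-0.22, adjusted p = 0.029).

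The ratio of Abcc8 to Kcnj11 RPKM was computed in each library, since the receptor and the pore subunit assemble together. It was 3.12, 2.99 and 3.44 in the controls of set 1 and 5.15, 5.28 and 5.4 after Cop1 deletion, without overlap (3.19 ± 0.23 and 5.28 ± 0.12, mean ± SD, n = 3 each, p = 0.1 by exact permutation test, 2-sided, the smallest p that 3 against 3 libraries can give). In the libraries labelled Etv1/4/5 it was 3.8 ± 0.17 (SD, n = 4, exact permutation p = 0.057 against control, the smallest possible). In set 2 the ratio was 4.1 ± 0.43 in controls and 4.48 ± 0.24 after Cop1 deletion (SD, n = 4 each, exact permutation p = 0.14). In the libraries labelled Etv4/5 it was 5.17 ± 0.18 (SD, n = 4, exact permutation p = 0.029 against control, also the smallest possible). Adjusted over these 4 tests, the p-values were 0.11 to 0.14, so none passed.

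**Figure D3:**
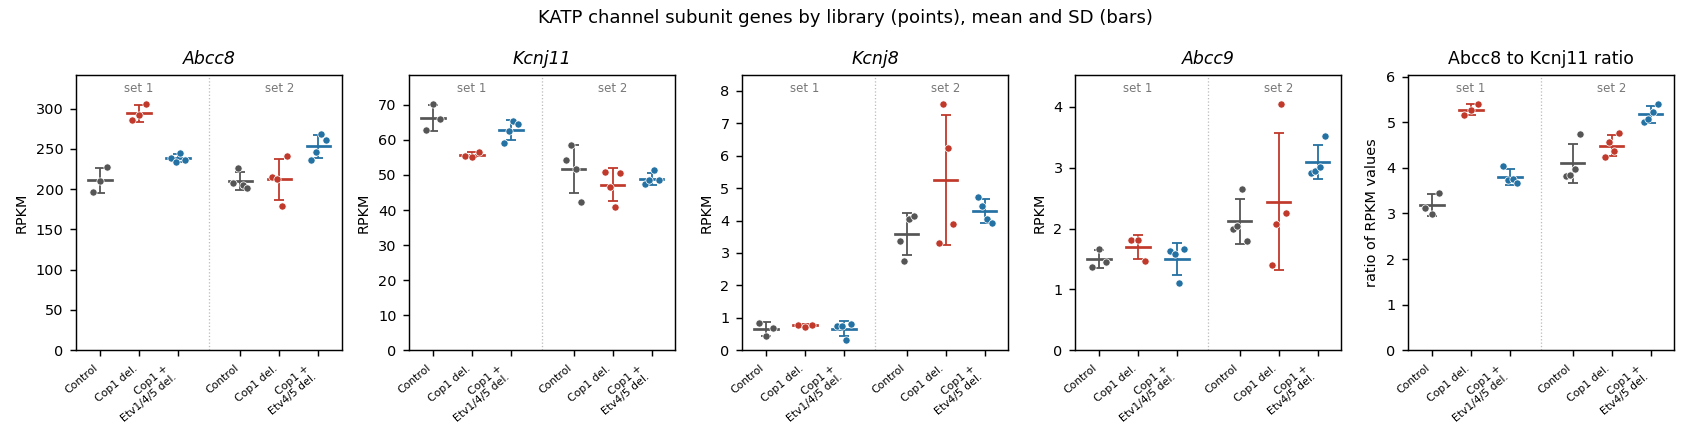
RPKM of Abcc8, Kcnj11, Kcnj8 and Abcc9 and the ratio of Abcc8 to Kcnj11 RPKM in each library (points) of the 6 groups, with the mean and SD. In set 1 the 3 Cop1 deletion libraries have Abcc8 at 286 to 306 RPKM, above all other libraries of the plot, and Kcnj8 is near 1 RPKM or below in set 1 and at 2.76 to 7.59 in set 2.

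Kcnj8 and Abcc9, which form the KATP channel of smooth muscle and pericytes and lie next to each other on chromosome 6, were low and were not called in any comparison. Kcnj8 was at 0.426 to 0.847 RPKM in the controls of set 1 and at 0.724 to 0.786 after Cop1 deletion (log2 fold change 0.15, SE 0.23, adjusted p = 0.82). In set 2 it was at 3.37, 2.76, 4.05 and 4.14 RPKM in the controls and at 3.32, 7.59, 6.22 and 3.9 after Cop1 deletion (0.44, SE 0.20, adjusted p = 0.13). The values of 7.59 and 6.22 are those of replicates 2 and 3, which lacked Xist. Over the alternatives the set 2 fold change of Kcnj8 ran from 0.02 to 0.62. Abcc9 was at 1.36 to 1.66 and 1.47 to 1.81 RPKM in set 1, and at 1.8 to 2.64 and 1.4 to 4.05 in set 2. The summed RPKM of 8 pericyte and smooth muscle markers was 58.6 to 65 in the controls and 63.1 to 81.6 in the Cop1 deletion libraries of set 1, and 20.1 to 37.7 and 14.2 to 44.3 in set 2. Kcnj8 was higher in set 2 and these markers were lower there, but levels were not tested between the sets. In bulk islets, fewer cells of a type and less RNA per cell cannot be told apart.

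Among the 5 tested 2-pore-domain channels, 1 rose and 2 fell in the mean of both sets (60% called, against 20.1% of all genes). Kcnk16, whose protein is a background channel found mainly in islets, was at 103, 92.1, 77.6 and 94 RPKM in the controls of set 2 and at 36.8, 42.5, 44 and 54.5 after Cop1 deletion. The groups were well apart, and Kcnk16 fell (log2 fold change -1.04, SE 0.11, adjusted p = 3.2e-06). In set 1 it was at 197, 161 and 185 RPKM in the controls and at 144, 159 and 151 after Cop1 deletion, where it did not pass (-0.26, SE 0.13, adjusted p = 0.26). The difference between the sets was called (0.79, SE 0.17, adjusted p = 0.014) and was not lost when any single library was left out. It was lost with only the groups of the comparison in the fit and with set 2 libraries that have Xist only (adjusted p up to 0.081). Kcnk16 and Abcc8 were the only members for which the sets differed by this test.

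Kcnk1, a weak inward rectifier with 2 pore domains, rose in the mean of both sets (log2 fold change 0.25, SE 0.07, adjusted p = 0.015) and in set 2, from 19.2 to 26.8 RPKM in the controls to 25.5 to 30.1 (0.32, SE 0.09, adjusted p = 0.019). The groups overlapped through set 2 control replicate 4, and the call in set 2 was lost without set 2 control replicate 1 or 2 or Cop1 deletion replicate 3 (adjusted p 0.054 to 0.075). Kcnk12, a member that forms little or no current on its own, was at 4.36, 4.45, 4.58 and 4.24 RPKM in the controls of set 2 and at 5.9, 6.63, 5.6 and 5.19 after Cop1 deletion. These groups did not overlap, and Kcnk12 rose in set 2 (0.36, SE 0.10, adjusted p = 0.019) and lost its call without Cop1 deletion replicate 2 (adjusted p = 0.058). Kcnk3, an acid-sensitive background channel, was at 7.86, 8.73 and 10.3 RPKM in the controls of set 1 and at 6.35, 6.13 and 4.53 after Cop1 deletion. It fell in set 1 (-0.62, SE 0.17, adjusted p = 0.032), and the call was lost without control replicate 2 or 3 or Cop1 deletion replicate 3 or 4 (adjusted p 0.055 to 0.16). In the mean of both sets Kcnk3 fell (-0.36, SE 0.12, adjusted p = 0.032), a call lost without any 1 of 5 libraries (adjusted p 0.051 to 0.1): set 1 control replicates 2 and 3, set 1 Cop1 deletion replicate 4, and, in set 2, control replicate 3 and replicate 1 of the Cop1 deletion. Kcnk5, another acid-sensitive background channel, was not called in any comparison.

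Of the 5 other inward rectifiers tested, Kcnj12 alone was called after Cop1 deletion (20% in the mean of both sets, against 20.1% of all genes). Kcnj12, a strong inward rectifier best known from heart and skeletal muscle, was at 2.5, 2.25 and 2.98 RPKM in the controls of set 1 and at 1.3, 0.741 and 1.09 after Cop1 deletion. In set 2 the controls were at 2.78, 2.75, 2.55 and 1 RPKM and the Cop1 deletion libraries at 0.629, 1.03, 0.314 and 1.14. The groups were apart in set 1 and overlapped in set 2 only through control replicate 4. Kcnj12 fell in the mean of both sets (log2 fold change -1.05, SE 0.18, adjusted p = 0.00037), in set 1 (-1.003, SE 0.28, adjusted p = 0.028) and in set 2 (-1.10, SE 0.24, adjusted p = 0.0033). The call in set 1 was lost without control replicate 1 or 3 or Cop1 deletion replicate 3 or 4 (adjusted p 0.065 to 0.13). That in set 2 was lost with only the groups of the comparison in the fit (adjusted p = 0.11). Kcnj6, a pore subunit of the G protein-gated channel, was not called (0.44, SE 0.16, adjusted p = 0.053 in the mean of both sets). Kcnj5, another G protein-gated subunit, was at 10.5, 0.208, 6.74 and 7.27 RPKM in the controls of set 2, at 0.662, 0.491, 0.583 and 15.7 after Cop1 deletion and at 11 to 16.4 in the libraries labelled Etv4/5. Libraries of the same group thus lay far apart, and Kcnj5 was not called in any comparison.

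The 16 voltage-gated pore subunits tested had 2 that rose and 4 that fell in the mean of both sets, with a median log2 fold change of -0.26. The share called was 37.5%, against 20.1% of all genes. Kcnf1 and Kcng3 encode electrically silent subunits, which form no channel alone and modify other voltage-gated subunits such as Kcnb2. Kcnf1 was at 3.68, 8.04 and 4.26 RPKM in the controls of set 1 and at 1.86, 1.54 and 1.18 after Cop1 deletion, with the library labelled set 1 control replicate 2 the highest. It fell in set 1 (log2 fold change -1.46, SE 0.31, adjusted p = 0.0045) and in the mean of both sets (-1.01, SE 0.20, adjusted p = 0.0014), and in set 2 it was at 0.766 to 2.85 RPKM against 0.839 to 1.71 (-0.56, SE 0.27, adjusted p = 0.14). Kcng3 was at 1.66, 1.36 and 1.97 RPKM against 0.767, 0.903 and 0.883 in set 1, and at 0.6, 0.522, 0.362 and 0.309 against 0.192, 0.0124, 0.114 and 0.186 in set 2, without overlap in either. Kcng3 fell in set 1 (-0.67, SE 0.19, adjusted p = 0.032) and in set 2 (-0.60, SE 0.16, adjusted p = 0.015). All set 1 controls and no Cop1 deletion library reached 1 RPKM. Kcng3 thus entered the test in part through the group where it was high, which limits its set 1 result. The set 2 values all lay below 1 RPKM, and over the alternatives the set 2 fold change ran from -1.34 to -0.36. The call in set 1 was lost without any 1 of 5 of its libraries (adjusted p 0.072 to 0.13) and that in set 2 without control replicate 1 or Cop1 deletion replicate 2 (adjusted p 0.051 to 0.054). Kcnb2 fell in the mean of both sets (-0.59, SE 0.18, adjusted p = 0.023), a call lost without set 1 control replicate 1 or set 1 Cop1 deletion replicate 4 (adjusted p 0.051 to 0.055).

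The Kcnh family of voltage-gated channels went both ways. Kcnh1 was at 6.6, 8.95 and 4.12 RPKM in the controls of set 1 and at 21.4, 15 and 10.8 after Cop1 deletion. These groups did not overlap, and Kcnh1 rose (log2 fold change 1.21, SE 0.27, adjusted p = 0.0078), a call lost without control replicate 3 or Cop1 deletion replicate 2 (adjusted p 0.052 to 0.06). In set 2 it was at 15.6, 15.7, 15.9 and 9.4 RPKM in the controls and at 24, 11.2, 16.6 and 18 after Cop1 deletion, and the groups overlapped (0.27, SE 0.24, adjusted p = 0.44). Kcnh3 was at 0.747, 0.683, 0.805 and 0.776 RPKM in the controls of set 2 and at 1.87, 1.84, 1 and 1.34 after Cop1 deletion, and it rose (0.66, SE 0.12, adjusted p = 0.00076). This call was lost with only the groups of the comparison in the fit (adjusted p = 0.073). Kcnh3 overlaps Mcrs1 in the annotation, and whether counting used the strand is not known from the sources used here, so reads of these genes cannot be told apart. The same limit holds for other named members. Kcnn2 overlaps A330093E20Rik (up to 0.477 RPKM), Kcnk3 Gm9899 (up to 0.715) and Abcc9 5330439B14Rik (up to 2.27). Kcnip1 overlaps Kcnmb1 (up to 1.62) and Kcnip4 5730480H06Rik (up to 1.31). Kcnh2, the channel that repolarizes the heart, was at 35.9, 38.6, 33.9 and 24 RPKM in the controls of set 2 and at 29.8, 22.3, 18.5 and 28.8 after Cop1 deletion, with overlap. It fell in set 2 (-0.41, SE 0.13, adjusted p = 0.037), and the call was lost without any 1 of 5 set 2 libraries (adjusted p 0.08 to 0.12): control replicates 1, 2 and 3 and Cop1 deletion replicates 2 and 3. Without both these Cop1 deletion replicates the value was -0.15 (adjusted p = 0.49). Kcnh6 was not called in any comparison.

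Of the 8 calcium- and sodium-activated channel genes tested, 2 rose in the mean of both sets and none fell by this limma test, in which 4 members had an unadjusted p under 0.05. The share called was 25%, near the 20.1% of all genes. Kcnmb2, a regulatory subunit that makes BK channels inactivate, was at 38.1, 39 and 40 RPKM in the controls of set 1 and at 54, 59 and 64.5 after Cop1 deletion. In set 2 it was at 23.4, 21.7, 20.5 and 13.2 RPKM in the controls and at 29.8, 30.3, 27.5 and 35.9 after Cop1 deletion. The groups did not overlap in either set, and Kcnmb2 rose in set 1 (log2 fold change 0.59, SE 0.15, adjusted p = 0.016) and in set 2 (0.66, SE 0.13, adjusted p = 0.0014). The call in set 1 was lost without control replicate 1 or Cop1 deletion replicate 3 or 4 (adjusted p 0.051 to 0.074). That in set 2 was lost with only the groups of the comparison in the fit (adjusted p = 0.095). Kcnma1, the pore subunit of the BK channel that Kcnmb2 modifies, was at 13.7, 14.2, 12.7 and 9.86 RPKM in the controls of set 2 and at 11.1, 4.6, 8.9 and 10.3 after Cop1 deletion, with overlap. Kcnma1 fell in set 2 (-0.56, SE 0.17, adjusted p = 0.031). Without control replicate 1, 2 or 3 the call was lost (adjusted p 0.061 to 0.089), and without Cop1 deletion replicate 2 the value was -0.30. In set 1 it was at 7.5 to 9.06 RPKM against 7.81 to 8.39. Kcnn2, a small-conductance calcium-activated channel, was at 0.364 to 0.504 RPKM in the controls of set 2 and at 0.835 to 1.18 after Cop1 deletion, without overlap, and it rose (0.68, SE 0.17, adjusted p = 0.0079). The call in set 2 was lost without Cop1 deletion replicates 2 and 3 together, with set 2 libraries that have Xist only and without all the libraries in doubt (adjusted p up to 0.12). In the mean of both sets Kcnn2 rose (0.46, SE 0.13, adjusted p = 0.015), a call lost without set 1 Cop1 deletion replicate 4 (0.38, adjusted p = 0.053). The call in the mean was also lost in the fits just named, with library weights and with only the groups of the comparison (adjusted p up to 0.17). Kcnn3, a channel of the same group, was not called in any comparison.

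Of the 8 auxiliary and regulatory genes tested, Kcnip2 alone was called (12.5% in the mean of both sets, against 20.1% of all genes). Kcnip2 encodes a calcium-binding partner of Kcnd channels. It was at 2.1, 3.23 and 1.42 RPKM in the controls of set 1 and at 7.28, 5.23 and 3.06 after Cop1 deletion, and at 0.545, 0.236, 0.253 and 0.268 against 0.618, 0.64, 2.62 and 0.6 in set 2. The groups overlapped in set 1 and not in set 2, where Cop1 deletion replicate 3 was far above the others. Kcnip2 rose in the mean of both sets (log2 fold change 0.93, SE 0.23, adjusted p = 0.008), while neither set passed alone (adjusted p = 0.081 and 0.065). Kcnip1, the most abundant gene of this family, was at 25.1 to 28.2 RPKM against 25.5 to 27.3 in set 1 and at 21.5 to 49.4 against 23.6 to 37 in set 2, and was not called. Kcnab3 and Kcnip4, the next by level, were not called either.

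**Figure D4:**
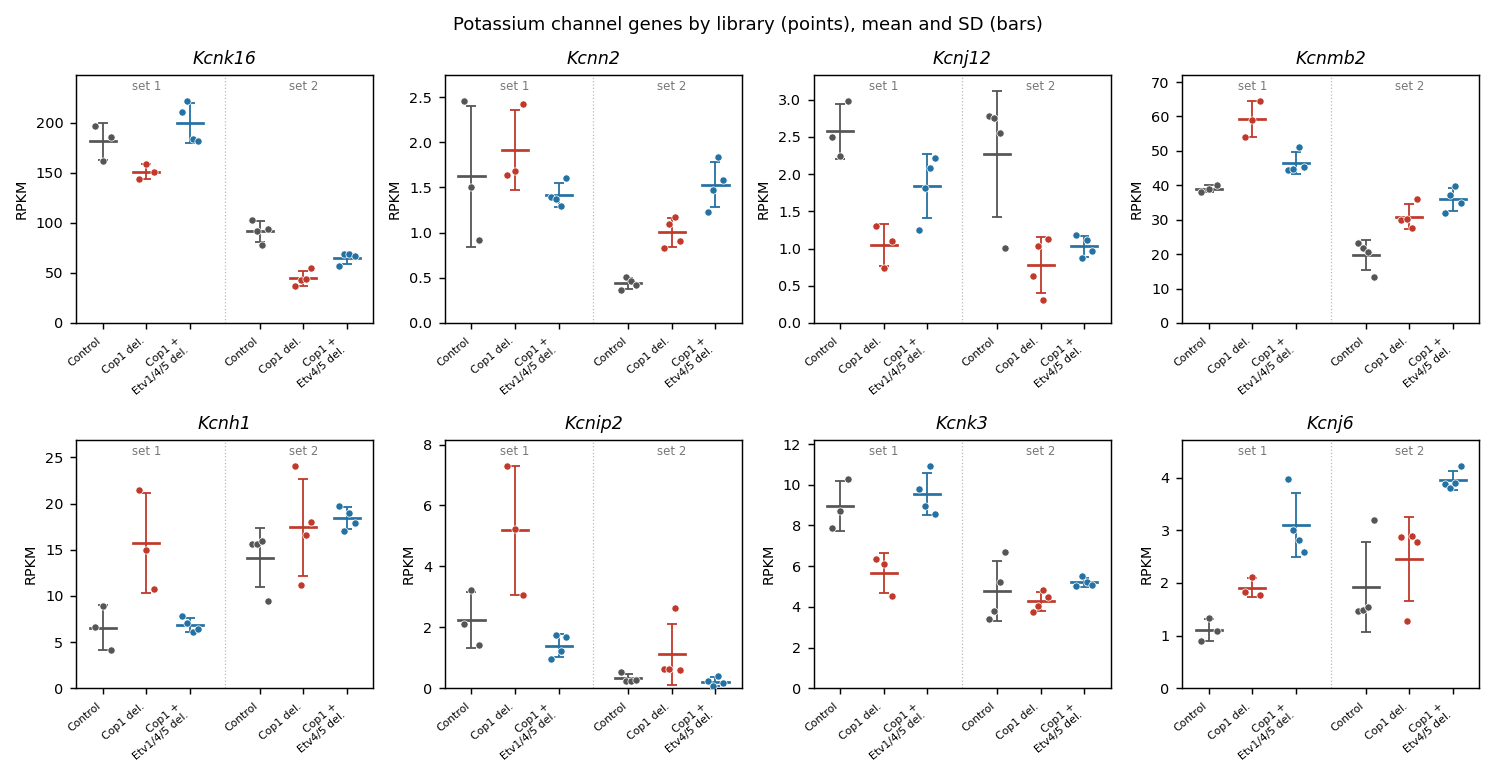
RPKM of 8 potassium channel genes in each library (points) of the 6 groups, with the mean and SD. Kcnk16 does not overlap between control and Cop1 deletion libraries in either set, at 161 to 197 against 144 to 159 RPKM and at 77.6 to 103 against 36.8 to 54.5.

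The libraries with Etv deletion were compared with Cop1 deletion within each set. Comparisons against Cop1 deletion and against control share libraries with those above, so the values are given side by side. In set 1, 5 of 46 members were called in the libraries labelled Etv1/4/5 against Cop1 deletion (2 higher and 3 lower), 10.9% against 6.34% of all genes, of which 3.65% were higher and 2.69% lower. Values did not overlap for 14 members (30.4%), against 30.7% of all genes. Kcnk3 was higher, at 9.8, 8.98, 10.9 and 8.56 RPKM (log2 fold change 0.71, SE 0.16, adjusted p = 0.01), a call lost without Cop1 deletion replicate 4 (0.57, adjusted p = 0.088).

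The members that were lower in the libraries labelled Etv1/4/5 than after Cop1 deletion were Kcnip2, Kcnh1 and Abcc8. Kcnip2 was at 0.966, 1.76, 1.22 and 1.67 RPKM (log2 fold change -1.53, SE 0.33, adjusted p = 0.0068). Kcnh1 was at 7.78, 7.09, 6.12 and 6.44 RPKM (-1.09, SE 0.25, adjusted p = 0.012). Both lay below every Cop1 deletion library of set 1, and both calls were lost without Cop1 deletion replicate 2 of set 1 (adjusted p = 0.057 and 0.095). Abcc8 was at 239, 234, 246 and 236 RPKM (-0.30, SE 0.08, adjusted p = 0.024), between control and Cop1 deletion without overlap with either. Its call was lost without any of the 3 Cop1 deletion libraries or replicate 1, 2 or 4 of those labelled Etv1/4/5 (adjusted p 0.052 to 0.11). Against control, 1 of 46 members was called in the libraries labelled Etv1/4/5, 2.17% against 1.32% of all genes (0.899% higher and 0.418% lower). Values did not overlap for 7 members, 15.2% against 14.1%. The member called was Kcnj6, at 0.904, 1.33 and 1.08 RPKM in the controls, 1.84, 2.11 and 1.78 after Cop1 deletion and 3.98, 3.01, 2.82 and 2.6 in the libraries labelled Etv1/4/5 (1.16, SE 0.22, adjusted p = 0.0086). Without control replicate 1 that call was lost (1.06, adjusted p = 0.071).

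In set 2, 2 of 46 members were called in the libraries labelled Etv4/5 against Cop1 deletion, 4.35% against 1.73% of all genes (0.676% higher and 1.05% lower). Values did not overlap for 14 members, 30.4% against 13.8% of all genes. Kcnk16 was higher, at 56.6, 68.5, 69.1 and 66.4 RPKM (log2 fold change 0.56, SE 0.11, adjusted p = 0.021), and stayed below the controls (-0.49, SE 0.11, adjusted p = 0.0077). Its call against control was lost in the fit with set 2 libraries that have Xist only. Kcnh3 was lower, at 0.819, 0.843, 0.885 and 0.767 RPKM (-0.58, SE 0.12, adjusted p = 0.023). Both calls against Cop1 deletion were lost without replicate 2, 3 or 4 labelled Etv4/5, that of Kcnh3 also without Cop1 deletion replicate 2 (adjusted p 0.06 to 0.081). Leaving out any 1 of these 3 Etv4/5 libraries thus left 0 members called by limma, and 0.105 to 0.153% of all genes. Without Cop1 deletion replicate 4, 8 members were called, where the share of all genes was 5.40%.

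Against control, 7 of 46 members were called in the libraries labelled Etv4/5 (4 higher and 3 lower), 15.2% against 8.74% of all genes (4.99% higher and 3.75% lower). Values did not overlap for 12 members, 26.1% against 21.6%. Kcnn2 was higher, at 1.23, 1.48, 1.83 and 1.59 RPKM (log2 fold change 1.11, SE 0.17, adjusted p = 0.00025), and so were Kcnmb2, at 31.8 to 39.7 (0.87, SE 0.13, adjusted p = 0.00019), and Kcnj6, at 3.88, 3.81, 3.9 and 4.21 (0.93, SE 0.20, adjusted p = 0.0066). Abcc8 was higher, at 237, 246, 269 and 262 RPKM (0.27, SE 0.07, adjusted p = 0.024), without overlap with the controls. That call was lost without set 2 control replicate 1, 3 or 4 or replicate 3 or 4 labelled Etv4/5 (adjusted p 0.053 to 0.084). Kcnj12 was lower, at 0.87 to 1.18 RPKM (-0.79, SE 0.24, adjusted p = 0.043), a call lost without any 1 of 12 libraries (adjusted p 0.051 to 0.12). The libraries labelled Etv1/4/5 and those labelled Etv4/5 come from different sets and genotypes, and the difference between them was not tested.

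The 53 members below the filter reached at most 1.22 RPKM in any library. 2 of them, Kcns2 and Kcna10, were listed at 0 in every library, and 14, these included, stayed below 0.1 RPKM. At the edge of the filter, Kcnc4, Kcnk6, Kcnmb4 and Kcns3 reached 1 RPKM in 1 library and Kcna6, Kcnab1 and Kcnk13 in 2, while Kcng3 and Kcnh5 passed with 5. No tested member passed through a single group, but Kcng3 passed through only 2. Its 5 libraries included all set 1 controls and no Cop1 deletion library. When the test was run with no filter over 23637 genes, 51 of the low members entered it and 7 were called after Cop1 deletion in the mean of both sets (5 higher and 2 lower), where 12% of all genes in that fit were called. That share includes genes above the filter, and the share of low genes alone was not computed. Kcns3 and Kcnk13, chosen after their values were seen, were called in each set too. Kcns3, a silent subunit that modifies other voltage-gated subunits, was at 0.0898 to 0.406 RPKM in the controls and at 0.68 to 1.22 after Cop1 deletion in set 1, and at 0.0594 to 0.175 against 0.415 to 0.53 in set 2. It rose in the mean of both sets (log2 fold change 0.84, SE 0.10, adjusted p = 2.1e-05). Kcnk13, a 2-pore-domain channel, was at 0.724 to 1.13 RPKM against 0.218 to 0.307 in set 1, and at 0.467 to 0.946 against 0.363 to 0.408 in set 2, and it fell (-0.64, SE 0.09, adjusted p = 0.00013). The groups did not overlap in either set for either gene. Among the low members are 4 noncoding RNAs (Kcnd3os, Kcnq1ot1, Kcnmb4os1 and Kcnmb4os2).

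Other genes of the pathway by which glucose triggers insulin release were tested from a list of 22 transporters, enzymes and channels. After Cop1 deletion 3 of them rose and 4 fell in the mean of both sets, with a median log2 fold change of -0.01. Of all genes, 9.57% rose and 10.5% fell. Slc2a2, the glucose transporter of β cells, fell from 189 to 272 RPKM to 45 to 69 in set 1 and from 36.4 to 85.8 to 4.61 to 7.82 in set 2 (log2 fold change -2.68, SE 0.19, adjusted p = 1e-08). The cation channel gene Trpm5, whose protein opens with calcium, fell (-2.07, SE 0.21, adjusted p = 1.5e-06). Scn3a, a voltage-gated sodium channel, rose (1.43, SE 0.17, adjusted p = 5.9e-06), and so did Trpm4, a cation channel related to Trpm5 (0.29, SE 0.05, adjusted p = 0.00065). These changes were larger for Slc2a2 and Trpm5 than for any of the potassium channel genes tested. Of 20 partners of potassium channels with other names, 15 were tested, 3 rose and 1 fell, beside the same 9.57% and 10.5% of all genes. Vapb, an anchor protein of the endoplasmic reticulum, rose (0.33, SE 0.07, adjusted p = 0.0017), as did the scaffold genes Dlg1 (0.29, SE 0.07, adjusted p = 0.0084) and Dlg4 (0.13, SE 0.04, adjusted p = 0.046). Dpp6, a partner of Kcnd channels, fell (-0.48, SE 0.14, adjusted p = 0.02).

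Marker lists of islet and other cells were counted after Cop1 deletion in the mean of both sets, where 9.57% of all genes rose and 10.5% fell. Defining β cell genes were high in every library, as the islet label says, and 1 of 6 rose and 4 fell. Among δ cell markers 2 of 4 fell, both PP cell markers rose, and 2 of 5 tested ductal markers rose. By limma 0 markers were called among 6 of α cells, 8 of acinar cells, 6 of endothelial cells, 8 of pericytes and smooth muscle, 5 of fibroblasts, 7 of immune cells and 4 tested ones of Schwann cells and neurons. At an unadjusted p under 0.05 these lists held 0, 1, 0, 0, 0, 3 and 1 in that order. The median log2 fold change of the acinar markers was 0.99. In the libraries labelled Etv4/5 against Cop1 deletion, 0 acinar and 0 ductal markers were called, where 1.73% of all genes were. There 8 of 8 acinar markers had an unadjusted p under 0.05 by limma (median -1.97), as did 4 of 5 tested ductal markers (median -1.32). The summed RPKM of 4 δ cell markers was 3702 to 7213 in the controls and 2385 to 2896 in the Cop1 deletion libraries of set 1, and 3959 to 5627 against 2313 to 3092 in set 2. The sum of 2 PP cell markers was 1854 to 3501 against 6609 to 8717 in set 1 and 4120 to 6514 against 7046 to 19020 in set 2. Ductal markers (6 genes) summed to 141 to 185 against 229 to 290 in set 1 and to 1054 to 1537 against 2509 to 4044 in set 2. None of these markers was at 0 in all libraries of a group. The part of these cells in the changes of the potassium channel genes was not tested.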

How the data were processed

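RNA sequencing of islets was analysed from RPKM values that the authors deposited, with 1 row per NCBI Gene number. Per the submitters' processing notes the genome build was mm9. Which aligner, counter, annotation and strand setting were used is not given in the sources used here. Of 24 library columns, 22 could be placed in a group by the labels and 2 were not used. Symbols were taken from the GRCm38.p6 gene table by gene number (24998 matched, 3061 did not). No count model was used, since the values are not counts. Relative depth was read from 5892 low genes (values up to 0.3 RPKM), of whose values 88.4 to 91.9% per library came out as whole multiples of what 1 read is worth (within 0.01).

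The filter kept genes that reached 1 RPKM in 4 or more libraries. They were tested as log2(RPKM + 0.5) with limma 3.58.1 (R 4.3.3), with a variance trend and robust estimation, 6 group means in 1 fit and Benjamini-Hochberg adjustment over all genes tested (threshold 0.05). The ratio of Abcc8 to Kcnj11 was compared by exact permutation tests. The fit was tested on simulated data. Named were the 4 KATP genes, members called in any comparison, up to 3 of the most abundant uncalled members of a family, and up to 4 called genes of each other list by adjusted p. Members and lists were chosen with earlier results of these data known. The alternatives changed the pseudocount, filter, scaling, weights, variance model and libraries. 1 of them, without 4 libraries in doubt, was chosen after seeing the data. Results on some members are not reported here, though counts over the members include them.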

Additional observations from a re-analysis of the deposited data

Results flagged for a closer look

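Within groups of 4 libraries, 11 of 88 checks (22 genes in 4 groups, 12.5%) found 1 library far from the other 3. The cut-off gives about 1 in 20 for independent values of a normal distribution. These genes share libraries and were chosen with results known, so the share found cannot be compared with that rate. In set 2 control replicate 4, Kcnh1 was lowest at 9.404 RPKM (others 15.6 to 15.9), Kcnj12 was lowest at 1.004 (others 2.55 to 2.78) and Kcnj6 was highest at 3.198 (others 1.48 to 1.54). In control replicate 1 of that set, Kcnip2 was highest at 0.5446 RPKM (others 0.236 to 0.268). Among the set 2 Cop1 deletion libraries, Kcnip2 was highest in replicate 3 at 2.621 RPKM (others 0.6 to 0.64), Kcnj6 was lowest in replicate 2 at 1.274 (others 2.78 to 2.89) and Kcnj5 was highest in replicate 4 at 15.69 (others 0.491 to 0.662). In replicate 3 labelled Etv1/4/5, Abcc9 was lowest at 1.103 RPKM (others 1.59 to 1.66), Kcnj8 was lowest at 0.3238 (others 0.758 to 0.819) and Kcnmb2 was highest at 51.28 (others 44.3 to 45.3). In replicate 4 labelled Etv4/5, Abcc9 was highest at 3.517 RPKM (others 2.91 to 3.01). The effect of Cop1 deletion differed between the sets, as set 1 minus set 2 on the log2 scale, for Kcnk16 (0.7865) and Abcc8 (0.4714), by the limma test of that difference.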

How the results depend on the processing

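Over 34 alternatives, 20 of 51 called gene results kept their call in all, 31 lost it in 1 or more and 0 changed sign. The limits are the few libraries of set 1, its lower depth and the spread within set 2. No paired analysis was possible because the labels give no replicate numbers that groups share. Counts are of the 46 members, in the order mean of both sets, set 1, set 2, set 1 minus set 2, Etv1/4/5 against Cop1 deletion, Etv4/5 against Cop1 deletion, Etv1/4/5 against control and Etv4/5 against control. Library weights gave 27, 25, 22, 16, 13, 11, 11 and 21 calls, and called 43.6, 37.9, 35.1, 27.0, 25.9, 22.4, 21.1 and 33.2% of all genes. With only the groups of the comparison in the fit, set 2 had 3, set 1 minus set 2 had 0, Etv1/4/5 against Cop1 deletion had 11 and Etv4/5 against Cop1 deletion had 0 (all genes 3.23, 0.439, 17.1 and 0.00697%). With set 2 libraries that have Xist only, set 2 had 5, and set 1 minus set 2 and Etv4/5 against Cop1 deletion had 0 each (all genes 9.27, 1.88 and 0.0488%). Without set 2 Cop1 deletion replicates 2 and 3, set 2 had 5, Etv1/4/5 against Cop1 deletion 8 and Etv4/5 against Cop1 deletion 1 (all genes 11.1, 11.7 and 0.307%). With no filter, Etv1/4/5 against Cop1 deletion had 9 of 97 members (all genes 4.24%). Without the 4 libraries in doubt (chosen after seeing the data), set 1 had 16, set 1 minus set 2 had 6, Etv1/4/5 against Cop1 deletion 12, Etv1/4/5 against control 4 and Etv4/5 against control 16 (all genes 24.7, 12.8, 22.03, 12.8 and 23.1%). Leaving out 1 library at a time gave 11 to 20, 4 to 9, 7 to 19, 1 to 4, 2 to 8, 0 to 8, 0 to 1 and 5 to 9 calls (all genes 15.9 to 23.7, 5.01 to 13.2, 13.5 to 23.8, 1.51 to 5.88, 3.79 to 10.6, 0.105 to 5.40, 0.635 to 2.50 and 5.59 to 13.9%). The difference in the ratio of Abcc8 to Kcnj11 between Cop1 deletion and control then ranged from 1.993 to 2.219 in set 1 and from 0.291 to 0.5998 in set 2. The cause of these moves was not tested. Scaling to equal total RPKM shifted the median of all genes by 0.12 in set 1, by 0.20 in set 1 minus set 2 and by -0.13 in Etv1/4/5 against Cop1 deletion (log2).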

Other observations

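Kcnj5 also varied within the group labelled Etv1/4/5, at 0.0873, 0.123, 2.4 and 1.79 RPKM. The genes near it on chromosome 9 that were looked up were Barx2, at 0.121 to 1.44 RPKM, Fli1, at 0.554 to 1.82, Arhgap32, at 2.31 to 7.31, Kcnj1, at 0 to 0.149, and Ets1, at 4.19 to 18.7 over the 22 libraries.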
